A study of Mus musculus with 18 samples.

Results

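The core pluripotency transcription factors Pou5f1, Sox2, Nanog, Esrrb, Sall4, Utf1, Tbx3, Nr0b1, Nr5a2 and Tfcp2l1 were followed in FVB/N embryonic stem (ES) cells. Members were all probe sets whose chip annotation names 1 of these 10 genes and no other gene. They were 23 of the 36701 probe sets that are not controls, for 10 of the 15964 genes with a probe set of their own. U74Av2 carried 15 of them, U74Bv2 1 and U74Cv2 7. The study asked how wildtype ES cells kept by the cytokine LIF differ from germline competent ES cells kept by an inducible STAT3. It reports that its wildtype FVB/N lines gave no chimeras. The WT LIF group was 3 independently cultivated dishes of wildtype FVB/N ES cells grown with LIF. The STAT3-MER OHT group was 3 independently cultivated dishes of a transgenic FVB/N line that overexpresses STAT3-MER, grown without LIF and with OHT (4-hydroxytamoxifen). STAT3-MER is STAT3 fused to an estrogen receptor ligand-binding domain that binds OHT, and a chicken β-actin promoter drives it. Both lines were established on mouse embryonic fibroblast feeder cells. Each group was 1 cell line, so the transgene, OHT, the absence of LIF and the line itself cannot be told apart, and the p-values measure the spread between dishes of a line. RNA of each dish was amplified in 2 rounds and hybridized to 3 Affymetrix chips, which gave 18 arrays.

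Pou5f1 (OCT-3/4), Sox2 and Nanog form the centre of the transcription network of ES cells and of the inner cell mass of the blastocyst. They bind many enhancers together, their own included. Esrrb, Tfcp2l1, Tbx3, Nr5a2, Nr0b1, Sall4 and Utf1 act around them, and in mouse ES cells Tfcp2l1 is a known target of LIF and STAT3 signalling.

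Most of the 10 genes had a bright probe set, and no member probe set passed the test for a difference between the groups. Of the 23 probe sets, 11 had a mean signal of at least 1000 over the 6 dishes, a level that 15.6% of all probe sets reached. Another 4 had a mean under 100, and 6 lay below the 50th percentile of their chip. A probe set at or above the 90th percentile of its chip was found for 9 of the 10 genes, the exception being Nr5a2. For Sox2, Sall4 and Tbx3 that probe set carried a suffix that marks possible cross-hybridization. In limma at an adjusted p under 0.05, 0 of the 23 probe sets were called, against 0.00272% of all probe sets. The smallest adjusted p of a member was 0.999868. At an unadjusted p under 0.05 the count was 0 of 23 against a background of 3.44% (1.86% higher in STAT3-MER OHT, 1.58% lower). By the criteria of the study's methods, a ratio of means over 1.5 with a difference over 100 and p under 0.1, it was 0 of 23 against 1.98% (1.1% higher, 0.872% lower).

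The transgene was read by 1 Esr1 probe set. Its signal (Esr1, 93945_at) was 40.3, 19.7 and 9.25 in the WT LIF dishes and 25848, 25567 and 31549 in the STAT3-MER OHT dishes. It was the only probe set called over the 3 chips (log2 difference 9.00, SE 0.24, adjusted p = 7.51e-06 in limma), and the 6 arrays of U74Av2 followed their labels in it. The first Stat3 probe set (99099_at) gave 799, 827 and 831 in WT LIF and 892, 649 and 1233 in STAT3-MER OHT, and the second (99100_at) gave 506, 472 and 900 against 741, 693 and 1271, with log2 differences of 0.12 (SE 0.25) and 0.51 (SE 0.32). Both U74Cv2 probe sets of Stat3 also overlapped between the groups. So did all other Esr1 probe sets, with log2 differences from -0.69 (115428_at on U74Bv2) to 0.38 (161113_at on U74Av2). On U74Av2 the deviations of WT LIF replicate 1 from the mean of the 6 dishes matched those of U74Bv2 WT LIF replicate 2 (r = 0.37). With U74Bv2 WT LIF replicate 1 the r was -0.30, both across 183 genes measured on both chips. U74Av2 WT LIF replicate 2 matched U74Bv2 WT LIF replicate 1 (0.43, own label -0.35). Against U74Cv2, WT LIF replicates 1 and 2 of U74Av2 crossed in the same way (0.20 and 0.22, own labels -0.16 and -0.12). U74Av2 WT LIF replicate 3 matched U74Bv2 STAT3-MER OHT replicate 3 (0.36, own label -0.08). U74Av2 STAT3-MER OHT replicate 3 matched U74Bv2 WT LIF replicate 3 (0.35, own label -0.20). The same crossing of U74Bv2 with U74Cv2 gave 0.21 and 0.24, while replicate 3 of U74Av2 and U74Cv2 matched by label (0.16 and 0.14). The groups of the U74Bv2 replicate 3 arrays are therefore in doubt, and so are the numbers 1 and 2 of the WT LIF arrays across chips. All arrays were used as labelled. Genes are not independent replicates. Dishes of a member were therefore compared within a chip, while list sums over chips and values with a dish left out follow the labelled numbers.

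**Figure D1:**
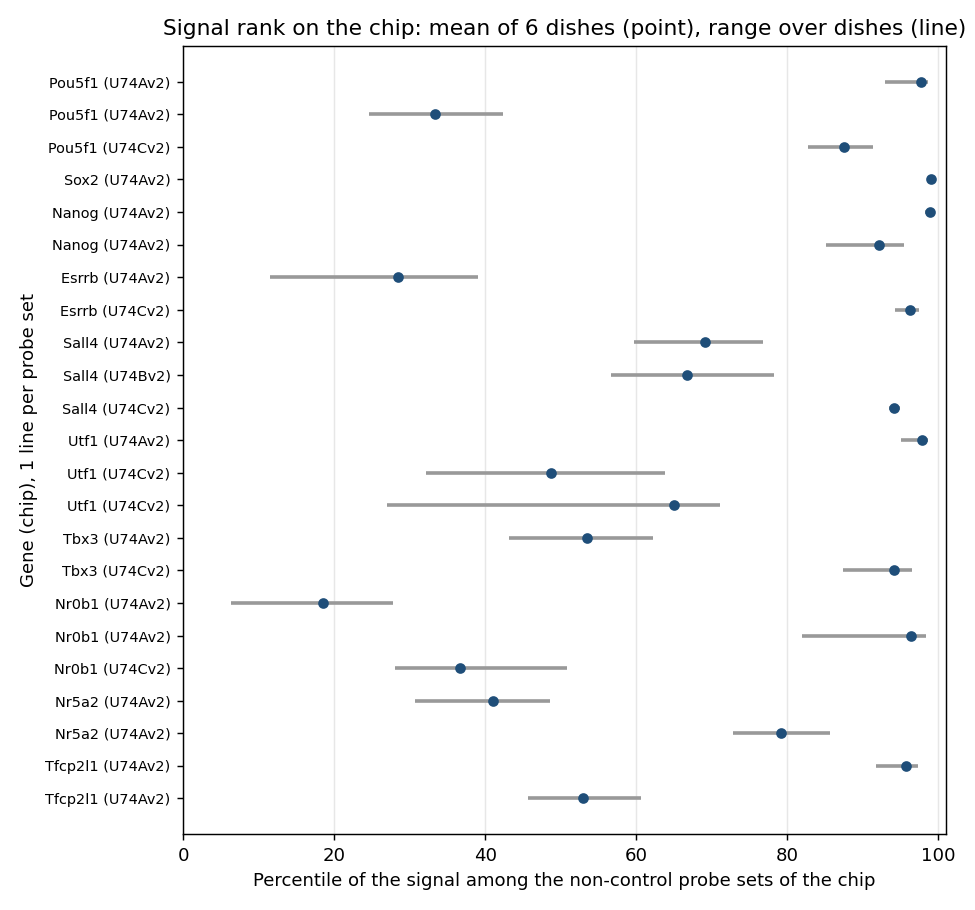
Percentile of the signal among the non-control probe sets of the same chip for each of the 23 member probe sets, as the percentile of the mean of 6 dishes (point) and the range over the dishes (line). Sox2 and the first Nanog probe set lie near the 99th percentile in all 6 dishes. At least 1 probe set each of Pou5f1, Esrrb, Utf1, Nr0b1 and Nr5a2 has its point below the 50th.

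Pou5f1, a POU-domain factor without which no pluripotent inner cell mass forms, had 3 probe sets. Its start-proximal promoter is shown because the letters of nuclear receptor sites lie in it and several members are nuclear receptors. The 250 bases before the first annotated start, chr17:35505782-35506031 on the plus strand of GRCm38.p6 (RefSeq), hold AGGTCA overlapping TCAAGG from 33 to 25 bases before the start, and TCAAGG on the other strand from 195 to 190. Capitals mark these letters.
Pou5f1: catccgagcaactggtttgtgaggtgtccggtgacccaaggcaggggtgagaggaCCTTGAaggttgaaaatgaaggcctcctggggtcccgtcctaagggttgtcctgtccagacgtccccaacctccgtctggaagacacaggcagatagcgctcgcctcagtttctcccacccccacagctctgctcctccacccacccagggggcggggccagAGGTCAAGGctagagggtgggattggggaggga
AGGTCA was found on either strand in 14.0% of 32851 promoters and TCAAGG in 12.5%. Among the members, promoters of Nanog, Nr0b1, Nr5a2 and Sox2 also held AGGTCA.

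The Pou5f1 probe set 103075_at had signals of 2157, 5825 and 5054 in WT LIF and 6533, 3562 and 8348 in STAT3-MER OHT, with means of 4345 ± 1934 and 6148 ± 2416 (SD, n = 3). WT replicate 1 was the lowest of the 6 dishes and STAT3-MER replicate 2 the next, and the groups overlapped. The log2 difference, STAT3-MER OHT minus WT LIF, was 0.53 (SE 0.43, 95% interval -0.46 to 1.52). It was 0.09 without WT replicate 1, 0.27 without STAT3-MER replicate 3, and 0.80 and 0.88 without WT replicate 2 or STAT3-MER replicate 2. Pou5f1 170285_at on U74Cv2 gave 1621, 897 and 1022 in WT LIF and 1416, 1212 and 872 in STAT3-MER OHT, a log2 difference of 0.00 (SE 0.31). The highest and the lowest dish of that probe set stood in opposite groups with the others mixed between them. The third, 161159_r_at, lay between 35.2 and 98.9, at the 33.3rd percentile of its chip.

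Sox2, the HMG-box partner of OCT-3/4, was read by 100009_r_at alone, a probe set whose suffix marks possible cross-hybridization. Sox2 gave 13355, 11645 and 8933 in WT LIF and 10108, 12078 and 10453 in STAT3-MER OHT. All 6 dishes lay between the 98.8th and 99.2nd percentiles of U74Av2, and the 3 STAT3-MER dishes fell inside the range of the WT dishes. The log2 difference was -0.04 (SE 0.21), and its 95% interval of -0.53 to 0.44 spans 0.694-fold to 1.36-fold. Of the bright U74Av2 member probe sets, Sox2 varied least between dishes, its highest dish being 1.495 times its lowest.

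Nanog, the homeobox factor whose overexpression frees mouse ES cells from LIF, had 2 probe sets on U74Av2. The promoters of Nanog and Sox2 are shown because they carry the octamer letters that OCT-3/4 is known to bind. In Nanog, at chr6:122707239-122707488 (plus strand, GRCm38.p6), capitals mark the 14 letters TTTGCATTACAATG, from 75 to 62 bases before the start, which join an octamer and a SOX core. In Sox2, at chr3:34649745-34649994 (plus strand), capitals mark the octamer letters ATGCAAA, 99 to 93 bases before the start.
Nanog: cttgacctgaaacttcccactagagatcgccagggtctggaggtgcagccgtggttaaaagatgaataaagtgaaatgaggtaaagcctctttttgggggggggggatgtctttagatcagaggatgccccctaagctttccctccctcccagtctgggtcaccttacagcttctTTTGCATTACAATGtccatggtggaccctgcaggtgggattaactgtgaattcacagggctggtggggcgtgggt
Sox2: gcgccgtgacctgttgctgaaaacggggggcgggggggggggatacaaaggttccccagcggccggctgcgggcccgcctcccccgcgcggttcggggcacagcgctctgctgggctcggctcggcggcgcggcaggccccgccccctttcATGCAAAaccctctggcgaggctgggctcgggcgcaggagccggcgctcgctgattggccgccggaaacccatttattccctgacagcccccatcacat
The composite of TTTGCAT and ACAATG with any 1 base between them was found on either strand in 2 of 32851 promoters (0.00609%), both of them overlapping windows of Nanog. The octamer core ATGCAAA, which overlaps the composite, was in 4.12% and the SOX core ACAATG in 10.7%.

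Nanog 161072_at gave 14179, 7593 and 7035 in WT LIF and 8404, 11228 and 10689 in STAT3-MER OHT. WT replicate 1 was the highest dish, the other two WT dishes were the lowest, and the STAT3-MER dishes lay between. The log2 difference was 0.14 (SE 0.29, 95% interval -0.53 to 0.81), and it was -0.05 without WT replicate 3 and 0.45 without WT replicate 1. The other Nanog probe set, 161653_f_at, gave 3088, 1661 and 1109 in WT LIF and 1764, 2740 and 1928 in STAT3-MER OHT, a log2 difference of 0.23 (SE 0.36). Both probe sets had the same highest and the same lowest dish within each group.

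**Figure D2:**
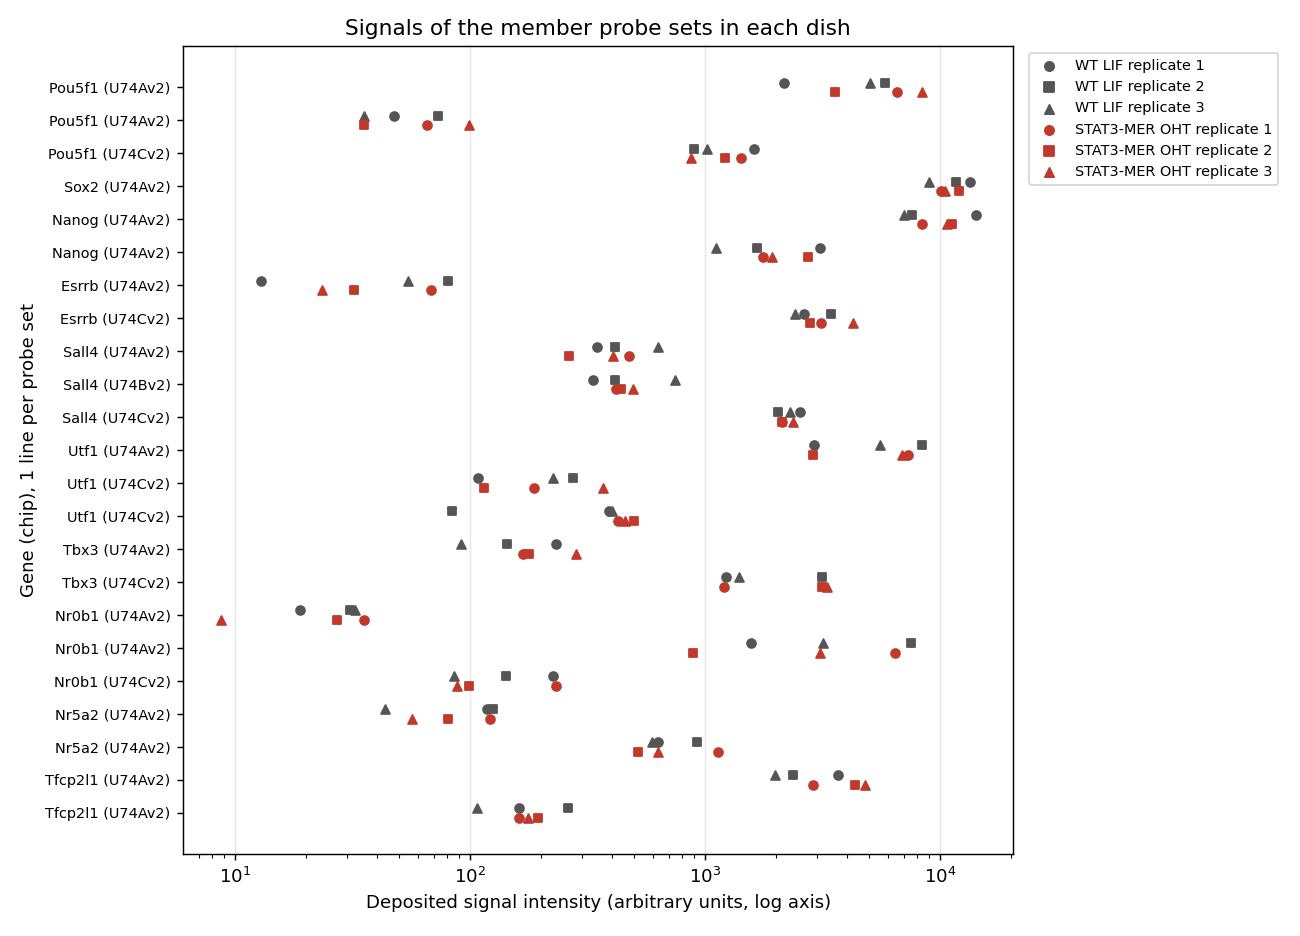
Deposited signal intensity (log axis) of each of the 23 member probe sets, 1 line each, with a point per dish: grey WT LIF, red STAT3-MER OHT, symbols for the replicate number. Only the lowest of the Utf1 lines, 170476_r_at, has all STAT3-MER dishes (426 to 498) above all WT dishes (83.8 to 401).

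Tfcp2l1, a CP2-family factor of the naive network, had the smallest p of the 23 probe sets. Its probe set 103761_at gave 3691, 2369 and 1975 in WT LIF and 2882, 4358 and 4791 in STAT3-MER OHT. STAT3-MER replicates 2 and 3 were above every WT dish, while WT replicate 1 was above STAT3-MER replicate 1. The log2 difference of Tfcp2l1 103761_at was 0.59 (SE 0.29, 95% interval -0.07 to 1.25), with an unadjusted p of 0.0717 in limma that did not pass the adjustment over all probe sets. With each dish left out in turn it ranged from 0.40 to 0.85. The other Tfcp2l1 probe set, 97193_at, lay between 106 and 261, with a log2 difference of 0.07 (SE 0.33).

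Esrrb, an orphan nuclear receptor that can replace Nanog in sustaining mouse ES cells, had a high signal rank with its U74Cv2 probe set and a low rank with that of U74Av2. Its promoter is shown because it was the only one of the 12 promoters of 8 members (Sall4 and Tbx3 had none in the RefSeq table) to hold the STAT letters TTCNNNGAA. Those letters, in capitals, lie 178 to 170 bases before the start in chr12:86360867-86361116 (plus strand, GRCm38.p6).
Esrrb: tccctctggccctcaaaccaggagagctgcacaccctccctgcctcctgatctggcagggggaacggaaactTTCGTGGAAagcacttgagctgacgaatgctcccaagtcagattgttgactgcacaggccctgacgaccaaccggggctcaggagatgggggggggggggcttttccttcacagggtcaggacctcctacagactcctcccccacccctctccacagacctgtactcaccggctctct
The letters TTCNNNGAA were found in 7.02% of all promoters.

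Esrrb 168508_at gave 2639, 3450 and 2411 in WT LIF and 3117, 2790 and 4258 in STAT3-MER OHT. STAT3-MER replicate 3 was the highest dish and WT replicate 2 the next, so the groups overlapped. The log2 difference was 0.25 (SE 0.24, 95% interval -0.30 to 0.80). Leaving out STAT3-MER replicate 3 gave 0.07, leaving out WT replicate 3 gave 0.14, and leaving out WT replicate 2 gave 0.40. Esrrb 100301_at lay between 12.9 and 80.4, at the 28.4th percentile of U74Av2.

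Tbx3, a T-box factor known to act downstream of LIF in mouse ES cells, had 2 probe sets. Tbx3 166427_f_at on U74Cv2 gave 1232, 3142 and 1397 in WT LIF and 1198, 3147 and 3306 in STAT3-MER OHT. The 6 dishes formed a low and a high set of 3, and each set held dishes of both groups. The log2 difference was 0.39 (SE 0.46, 95% interval -0.64 to 1.43). Tbx3 103538_at on U74Av2 gave 231, 143 and 91.2 against 167, 178 and 282, a log2 difference of 0.40 (SE 0.36). Both intervals included 0. With a dish left out the first ran from 0.14 (without STAT3-MER replicate 3 or WT replicate 1) to 0.86 (without STAT3-MER replicate 1), and the second from 0.13 (without WT replicate 3) to 0.68 (without WT replicate 1).

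Sall4, a zinc finger factor that binds OCT-3/4, was measured on all 3 chips. Sall4 169650_r_at on U74Cv2 gave 2541, 2040 and 2293 in WT LIF and 2127, 2127 and 2355 in STAT3-MER OHT. The highest dish was 1.25 times the lowest, the narrowest spread of the 23 probe sets, and the log2 difference was -0.05 (SE 0.21, 95% interval -0.52 to 0.41). Sall4 96169_at gave 347, 414 and 629 against 472, 263 and 407, a log2 difference of -0.26 (SE 0.30). Sall4 105629_at, the sole member on U74Bv2, gave 335, 415 and 744 against 419, 437 and 493, a log2 difference of -0.07 (SE 0.34). Those U74Bv2 values follow the labels, and the groups of the replicate 3 arrays of that chip are in doubt. In 96169_at and 105629_at the dish labelled WT replicate 3 was the highest, and without it 105629_at stood at 0.25 and 96169_at at -0.03. Without STAT3-MER replicate 2, the lowest dish of 96169_at, that probe set stood at -0.04.

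Utf1, a chromatin-bound factor of undifferentiated cells, gave 2905, 8363 and 5555 in WT LIF and 7335, 2891 and 6871 in STAT3-MER OHT with 102220_at. Each group held 1 low dish, WT replicate 1 and STAT3-MER replicate 2, and the log2 difference was 0.04 (SE 0.46, 95% interval -1.02 to 1.09). Utf1 170476_r_at on U74Cv2 gave 391, 83.8 and 401 in WT LIF and 426, 498 and 455 in STAT3-MER OHT. All STAT3-MER dishes of this probe set lay above all WT dishes, with a log2 difference of 0.82 (SE 0.54, 95% interval -0.38 to 2.03). WT replicate 2 carried most of it, and without that dish the value was 0.20. That array also had the highest 3′ to 5′ ratios of U74Cv2, 16.2 for Gapdh against 6.56 to 12.4 in the other dishes and 6.65 for Actb against 4.38 to 6.07, and the part of RNA quality in this value was not tested. It was the only 1 of the 23 probe sets (4.35%) whose groups did not overlap, where 8.13% of all probe sets did not, 4.5% being higher and 3.63% lower in STAT3-MER OHT. An exact permutation test of 3 against 3 dishes cannot go below p = 0.1. Utf1 168612_r_at lay between 108 and 369, with a log2 difference of 0.08 (SE 0.54).

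Nr0b1 (Dax1) and Nr5a2 (Lrh1) are orphan nuclear receptors, and in mouse ES cells Nr5a2 is known to bind Pou5f1 regulatory DNA. Nr0b1 93141_at gave 1561, 7521 and 3189 in WT LIF and 6449, 886 and 3081 in STAT3-MER OHT. Its highest dish was 8.49 times its lowest, the widest spread of the 23 probe sets, and each group held a high, a middle and a low dish. The log2 difference was -0.36 (SE 0.75, 95% interval -2.08 to 1.37), and leaving out a STAT3-MER dish moved it between -1.001 and 0.41. Nr0b1 162413_r_at lay between 8.70 and 35.2 and 169777_r_at between 85.7 and 232, each with a log2 difference of -0.12. Nr5a2 103728_at gave 631, 920 and 594 in WT LIF and 1139, 519 and 632 in STAT3-MER OHT, at the 79.2nd percentile. STAT3-MER dishes were both the highest and the lowest, and the log2 difference was 0.04 (SE 0.32). Nr5a2 102932_at lay between 43.4 and 125, with a log2 difference of -0.07 (SE 0.38).

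**Figure D3:**
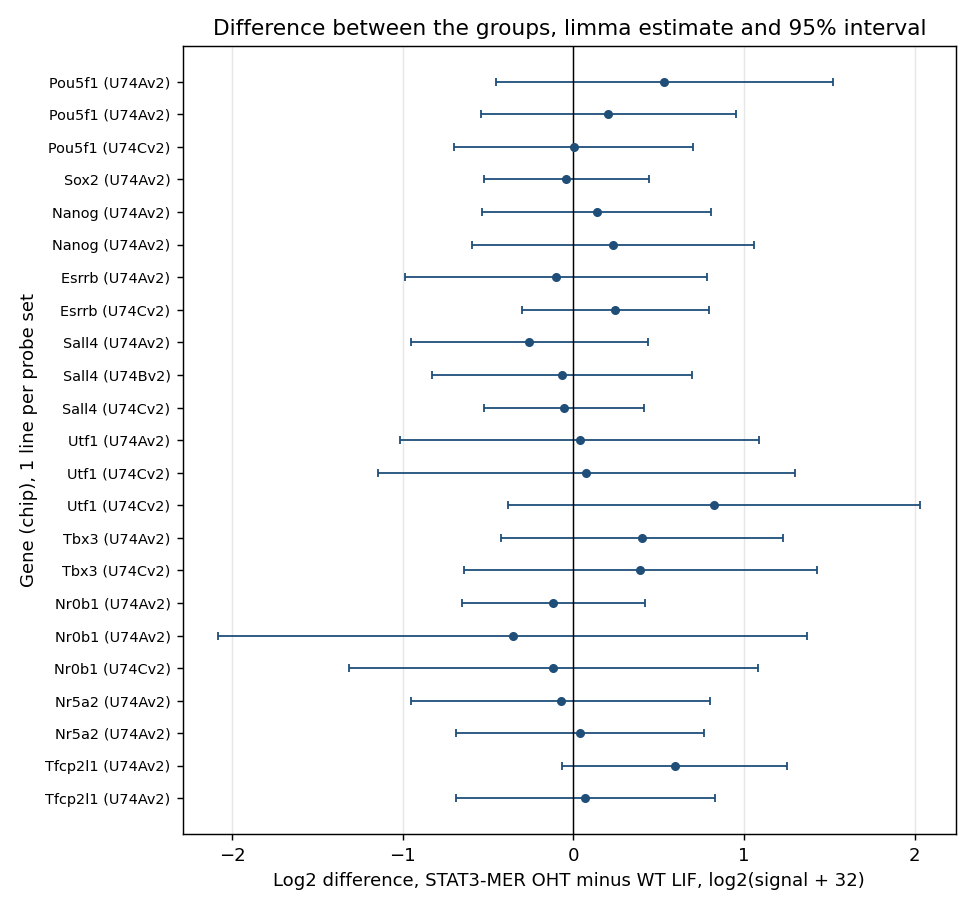
Log2 difference, STAT3-MER OHT minus WT LIF on the log2(signal + 32) scale, of the 23 member probe sets with 95% intervals from limma. All 23 intervals include 0, and 13 of them lie within -1 and 1.

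Over the members, 14 of 23 log2 differences were above 0 and 9 below, with a median of 0.04. Over all probe sets the median was 0.01 and 51.1% were above 0. With 1 probe set per gene, 7 of 10 members were above 0 and 3 below, with a median of 0.09 against 0.00 over all genes. The ratios of group means ran from 0.821 (Sall4, 96169_at) to 1.57 (Utf1, 170476_r_at). The half-width of the 95% interval ran from 0.47 to 1.72 on the log2 scale, and 10 of the 23 intervals included a log2 difference of 1, so a doubling lay within the error for those. Differences are on the log2(signal + 32) scale, which understates changes of the dim probe sets. In bulk dishes, fewer cells that express a gene and less RNA per cell cannot be told apart. The signal of a probe set also depends on its probes, so an order of signals between probe sets is not an order of RNA levels.

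On U74Av2 the bright members fell into 2 dish patterns. Pou5f1, Utf1 and Nr0b1 had their lowest WT dish in replicate 1 and their lowest STAT3-MER dish in replicate 2. Sox2, Tfcp2l1 and both Nanog probe sets had their highest WT dish in replicate 1 and their lowest STAT3-MER dish in replicate 1. These are 3 and 4 of the 7 U74Av2 member probe sets with a mean signal of at least 1000. Among all 1997 such probe sets of the chip, 28.8% showed the first pattern and 15.8% the second. Nr5a2, whose mean signal was under 1000, shared with the first set the highest WT dish (replicate 2) and the lowest STAT3-MER dish (replicate 2). The patterns were read off after the values were seen and are a description of these 6 arrays.

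The fibroblast list also differed between these dishes. The summed signal of its 22 genes on U74Av2 was 56635, 24951 and 55777 in WT LIF and 15156, 63499 and 46192 in STAT3-MER OHT, high where Pou5f1, Utf1 and Nr0b1 were low (WT replicate 1, STAT3-MER replicate 2), also high in WT replicate 3 where they were near their mean, and low where Nr0b1 and Utf1 were high (WT replicate 2, STAT3-MER replicate 1). STAT3-MER replicate 3 went the other way, with the sum 0.25 above its log2 mean and Pou5f1 0.80 and Utf1 0.40 above theirs. Both Nanog probe sets, Sox2 and Tfcp2l1 were high with the sum in WT replicate 1 and STAT3-MER replicate 2. They were also below their means with the sum in STAT3-MER replicate 1. In WT replicate 3 they were below their means while the sum was high. Over the 23 of 25 measured genes of the list the sums were 25495 to 57090 in WT LIF and 15252 to 64288 in STAT3-MER OHT, with a median log2 difference of -0.22, 0 called, and 2 genes with a mean signal under 100. Col1a2, a fibrillar collagen chain with the highest signal of the list, gave 9561, 4149 and 9352 in WT LIF and 1978, 12564 and 8411 in STAT3-MER OHT. Acta2, smooth muscle actin, and Dcn, decorin, followed with 553 to 10734 and 1959 to 8503. RNA quality also moved: the ratio of the 3′ to the 5′ probe set of Gapdh on U74Av2 was 15.3 in WT replicate 1 and 9.06 to 10.6 in the other dishes, and that of Actb was 7.81 against 4.69 to 5.95. On U74Bv2 and U74Cv2 the highest Gapdh ratio was that of WT replicate 2, at 20.0 and 16.2. The WT LIF numbers 1 and 2 are in doubt across chips, and whether these arrays come from 1 dish was not tested. The part of feeder cells and RNA quality in the dish patterns was not tested.

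**Figure D4:**
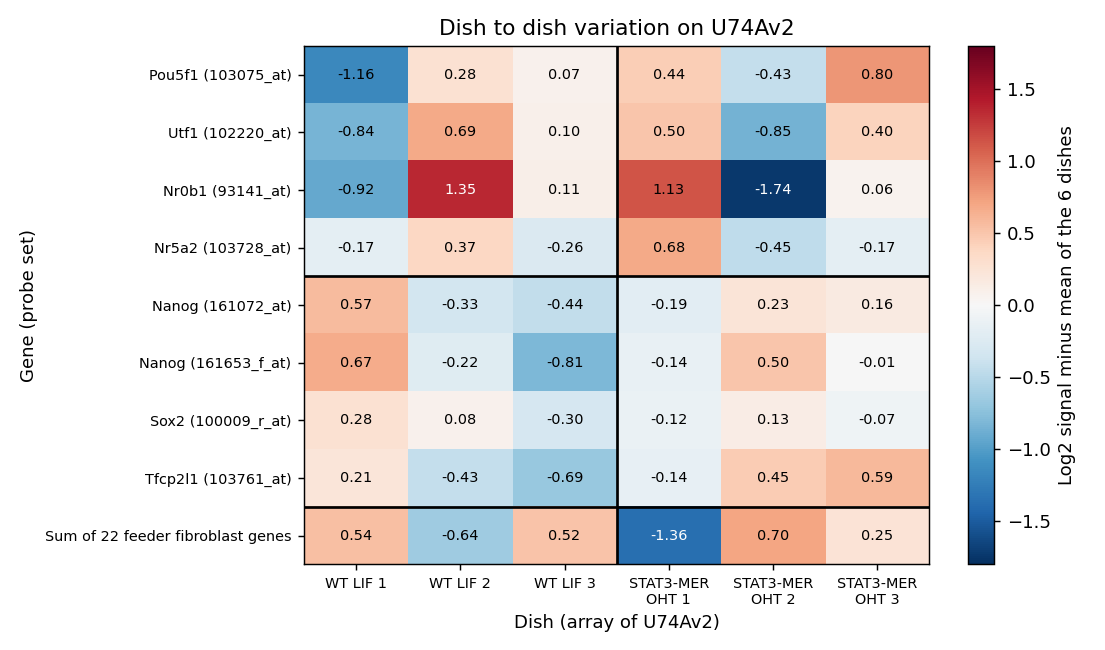
Log2 signal of each dish minus the mean of the 6 dishes (colour and number) for the 8 U74Av2 member probe sets with a mean signal of at least 500 and for the sum of 22 feeder fibroblast genes. Pou5f1, Utf1 and Nr0b1 are low in WT LIF 1 and STAT3-MER OHT 2, where the fibroblast sum is high at 0.54 and 0.70, while Nanog is high there.

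Genes with the most similar pattern over the 6 dishes of U74Av2 were looked up among 5033 probe sets of 1 gene with a mean signal of at least 200 (5032 for Nanog). For Pou5f1 103075_at they were Copg1 (Pearson r = 0.993), Rbm8a (0.990) and Psmc5 (0.990), which serve vesicle coats, the exon junction complex and the proteasome. For Sox2 they were Zdhhc16 (0.989), Lrch4 (0.980) and Mok (0.977). For Nanog 161072_at they were Naxe (0.997), Hcn2 (0.997) and Top3b (0.996). With only 6 arrays, such values describe these dishes only.

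No partner of the network passed the test. Of 40 listed partners of the core factors, 36 were measured and 0 were called, with a median log2 difference of 0.04 and a summed signal of 132517 to 147731 in WT LIF and 111176 to 159615 in STAT3-MER OHT. Groups did not overlap for 1 partner that was higher (Fbxo15) and 3 that were lower in STAT3-MER OHT, against 7.52% of all genes in either direction. The smallest p-values belonged to Dppa3, Klf2, Klf5 and Smarca4. Dppa3 (Stella), a maternal and germ cell factor, gave 1705, 709 and 1094 in WT LIF and 510, 476 and 514 in STAT3-MER OHT, a log2 difference of -1.09 (SE 0.30) that did not pass the adjustment. Every WT dish of Dppa3 was above every STAT3-MER dish. The Krüppel-like factors Klf2 and Klf5 stood at -0.50 (SE 0.22) and 0.55 (SE 0.26), and Smarca4, the ATPase of the esBAF remodeller, at -0.40 (SE 0.21). The highest signals among the partners were those of Dppa5a (22852 to 43340), Trim28 (15765 to 25887) and Dnmt3l (3952 to 18386).

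Of the lists, only the STAT3 route held a called gene. All 14 of its genes were measured, 6 did not overlap between the groups and were higher in STAT3-MER OHT, 0 were apart in the other direction, against 4.02% and 3.5% of all genes, and the median log2 difference was 0.33. Esr1 of the transgene was the 1 gene called, and it belongs to the list with genes that the study picked on these arrays, so the count is no independent evidence. Bcl3, an IκB family protein, gave 239, 168 and 330 in WT LIF and 1004, 979 and 1814 in STAT3-MER OHT, a log2 difference of 2.21 (SE 0.32, adjusted p = 0.596 in limma). Socs3 92232_at, the feedback inhibitor of STAT3 signalling, gave 507, 75.8 and 147 against 585, 2073 and 924, and Pramel6, a leucine-rich repeat protein of preimplantation cells, gave 563, 331 and 34.5 against 1248, 917 and 1747. The log2 differences of Socs3 92232_at and Pramel6 were 2.30 (SE 0.63) and 2.41 (SE 0.72), and neither passed the adjustment. Socs3 162206_f_at stood at 1.74 (SE 0.52). Socs3 111736_at on U74Bv2 stood at 0.25 (SE 0.47), and its groups overlapped.

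No marker of the cells that arise when the ES state is left passed the test. Of the 10 measured genes of the primed epiblast, 15 of primitive endoderm, 11 of trophectoderm and 12 of germ layers, 0 were called in each list. Fgf5 lay between 3.57 and 27.4, Cdx2 between 6.02 and 29.2 and Gata6 between 52.2 and 89.7. These dim markers were picked after their values were seen, and other genes of the same lists were bright. The summed signals were 4953 to 6703 in WT LIF and 3445 to 7317 in STAT3-MER OHT for primed epiblast, 7035 to 14722 and 8938 to 11953 for primitive endoderm, 5005 to 8485 and 4680 to 7790 for trophectoderm, and 2017 to 2216 and 1702 to 2455 for germ layers. The highest signals were those of Dnmt3b (1535 to 3986), Nodal and Lef1 for primed epiblast, and Amn (2784 to 4698), Col4a1 and Col4a2 for primitive endoderm. For trophectoderm they were those of Tfap2c (2449 to 4860), Ascl2 and Krt8, and for germ layers Nes (546 to 928), Hand2 and Kdr. Several of these are also made by ES cells or feeder cells. The 5 measured housekeeping genes, led by Pgk1, Actb and Hprt, had a median log2 difference of -0.12 and 0 calls.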

How the data were processed

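RNA of 3 WT LIF and 3 STAT3-MER OHT dishes was hybridized by the authors to U74Av2, U74Bv2 and U74Cv2. The deposited values are 1 signal intensity per probe set and array, linear and without detection calls. MAS5 is the tool named in the processing notes of the submitters, and its version is not given in the sources used here. The authors' scaling left a trimmed mean of 500.1 to 500.3 on every array. The study's own tables came from dChip and were not used. Groups and replicate numbers came from the labels. The U74Av2 array without a number took number 2. An array labelled with different chips was assigned to U74Cv2 by its probe sets.

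Within a chip, arrays were brought to a common trimmed mean (2% left out on each side). Log2(signal + 32) was compared with limma 3.58.1 in R 4.3.3 (lmFit, then eBayes with a variance trend, for each chip, two-sided), with Benjamini-Hochberg adjustment over 36701 probe sets and a threshold of 0.05, and with dim probe sets kept. The criteria of the study's methods were a ratio over 1.5, a difference over 100 and p under 0.1 in the methods' t-test, for which unequal variances were allowed. The number of arrays limits the precision. Of the probe sets, 29131 had 1 gene, 724 several and 6846 none, and 29044 matched the RefSeq genes of GRCm38.p6. Gene lists used 1 probe set per gene (no cross-hybridization suffix preferred, then the brightest).

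All member probe sets were named, with the 4 partners and 4 STAT3 route genes of smallest p, Stat3, Esr1 and Socs3, the 3 brightest genes of each marker list, and the 3 genes most alike to Pou5f1, Sox2 and Nanog. Fbxo15, Fgf5, Cdx2, Gata6 and Gchfr were named after their values were seen. The members, lists and motif letters were chosen with earlier results or the sequences known. Promoters are RefSeq windows of 250 bases before each annotated start. The sequences shown are those before the first start of a gene. The fit was tested on simulated data. Alternatives were other scalings (quantile, median, none), pseudocounts of 8 or 100, leaving out dim probe sets, eBayes without the trend, adjustment per chip, a fit with a replicate block, omission of each dish, and other choices of probe set. Figures were drawn with matplotlib 3.10.9.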

Additional observations from a re-analysis of the deposited data

How the results depend on the processing

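The count of called member probe sets was 0 under every alternative run. Of the settings with all dishes, 5 can move an estimate (the scalings and pseudocounts), and 114 of their 115 member log2 differences kept their direction. Pou5f1 170285_at, at 0.00 in the main setting, was -0.073 with median scaling. Over the 3 chips the call stayed at 1 probe set under every setting with all dishes except the criteria of the methods, which gave 725 (405 higher, 320 lower). With a dish left out it was 1 to 2, the second being Gchfr without WT LIF replicate 3. The median log2 difference of the member genes ranged from 0.081 to 0.39 with the same number left out on every chip, and it was 0.39 without STAT3-MER OHT replicate 2 and 0.31 without WT LIF replicate 2. The WT LIF numbers 1 and 2 are in doubt across chips, so leaving out such a number may leave out different dishes. The median was 0.13 when the probe sets of each gene were averaged. Of the 23 probe sets, 7 kept their sign without any 1 dish, and 16 changed it at least once. Those 16 ran, with a dish left out, as follows: Esrrb 100301_at from -0.48 to 0.19, Nanog 161072_at from -0.050 to 0.45, Nanog 161653_f_at from -0.11 to 0.62, Nr0b1 162413_r_at from -0.27 to 0.094, Nr0b1 169777_r_at from -0.47 to 0.17, Nr0b1 93141_at from -1.001 to 0.41, Nr5a2 102932_at from -0.42 to 0.12, Nr5a2 103728_at from -0.28 to 0.26, Pou5f1 161159_r_at from -0.025 to 0.46, Pou5f1 170285_at from -0.17 to 0.25, Sall4 105629_at from -0.30 to 0.25, Sall4 169650_r_at from -0.13 to 0.023, Sox2 100009_r_at from -0.20 to 0.089, Tfcp2l1 97193_at from -0.19 to 0.35, Utf1 102220_at from -0.37 to 0.46 and Utf1 168612_r_at from -0.31 to 0.41. The cause was not tested. A replicate block changed no call (0 members and 1 probe set), and in this balanced design it cannot move the log2 differences or their median of 0.09. Deviations of same-numbered dishes of the groups correlated at -0.30, -0.33 and 0.29 on U74Av2, 0.18, 0.21 and 0.13 on U74Bv2 and 0.11, 0.13 and 0.07 on U74Cv2. On the latter chips every dish correlated best with its own number, a hint from the data and not from the design. On U74Av2 WT replicate 1 went with STAT3-MER replicate 2 (0.46) and WT replicate 2 with STAT3-MER replicate 1 (0.41), so the numbers were not used to pair dishes there. The signals carry no detection call, so the 4 member probe sets with a mean under 100 cannot be said to stand above background.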
